A study of Mus musculus with 12 samples.

Results

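*Zscan4c*, *Zscan4d*, *Zscan4f*, *Tcstv3* and *Zfp352* are 5 of the 35580 genes to which the deposited transcripts could be assigned, and they were chosen by name as genes of the mouse 2-cell embryo. Zscan4 proteins carry a SCAN domain and zinc fingers and are known for their role in telomere maintenance and genome stability. Cultures of mouse ESCs hold a rare, passing state in which *Zscan4* genes and other genes of the 2-cell embryo are switched on in a small fraction of cells, and the transcription factor Dux is a known activator of this programme. *Tcstv3* is another gene of that state, and *Zfp352* encodes a zinc finger protein of the early embryo.

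RNA was sequenced from WT cells (R1, a mouse ESC line) and from CIDEA KO cells, a single *Cidea* -/- clone derived from R1, so genotype and clone cannot be told apart. Cells of both genotypes were taken as ESCs cultured with serum and LIF (0 h) and as 3D spheroids formed in growth factor-reduced Matrigel with serum and without LIF, 24 h and 48 h after induction. There were 2 libraries for each genotype and time and 12 in all, with 29 to 38.5 M estimated counts per library. *Cidea*, the targeted gene, had between 20 and 117 estimated counts in the WT libraries and 0 in all 6 KO libraries.

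The summed level of 7 markers of pluripotent cells was 4890 to 4960 CPM (counts scaled to the size of each library with TMM factors) in WT and 5320 to 5510 CPM in KO at 0 h, 3300 to 3400 and 3530 to 3590 CPM at 24 h, and 2260 to 2410 and 2310 to 2430 CPM at 48 h. Each marker exceeded 1 CPM in at least 1 library. KO 24 h replicate 1 stood apart by the number of genes detected at equal depth, which was 15473 against 17635 to 19672 in the others.

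The *Zscan4* genes form a cluster of 9 genes over 819.9 kb of chromosome 7 (GRCm38, positions 10794242 to 11614112). *Zscan4c* lies at chr7:11005745-11010547 on the plus strand, *Zscan4d* at chr7:11161374-11166159 on the minus strand and *Zscan4f* at chr7:11397915-11402318 on the plus strand, each with 4 exons. *Tcstv3* lies at chr13:120316878-120318178 and *Zfp352* at chr4:90218820-90225702, each with 2 exons and on the plus strand. The transcripts of *Zscan4c* and *Zscan4f* differed at 7 of 1806 aligned bases (99.6% identity), and *Zscan4d* was 97.5% identical to *Zscan4c* and 97.8% to *Zscan4f*. The closest pair in the cluster was *Zscan4f* and *Zscan4-ps2*, which differed at 4 bases. The last 120 coding bases are shown because they were the same in *Zscan4c*, *Zscan4d* and *Zscan4f*, so these bases do not by themselves tell the 3 genes apart.
*Zscan4c* (chr7:11009874-11009993, strand +): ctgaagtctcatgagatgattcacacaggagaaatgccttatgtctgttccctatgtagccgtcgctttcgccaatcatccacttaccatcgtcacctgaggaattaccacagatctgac

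The share of 31-base words of a gene's transcripts that occurred in no other gene was 8.5% for *Zscan4c*, 35.0% for *Zscan4d* and 8.3% for *Zscan4f*, against 49.0% for *Tcstv3* and 78.5% for *Zfp352*. Reads that fit several genes were divided between them by Kallisto. The split of counts among the *Zscan4* genes is therefore uncertain, and their sum is less affected by it.

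**Figure D1:**
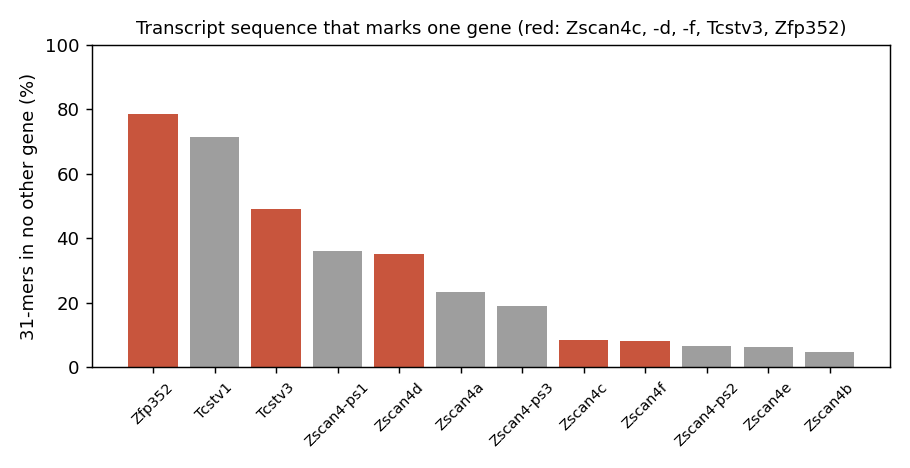
Share of 31-base words (%, vertical axis) of each gene's transcripts found in no other gene, for the *Zscan4*, *Tcstv* and *Zfp352* genes. *Zscan4c* (8.5%) and *Zscan4f* (8.3%) have little sequence of their own, while *Zfp352* has 78.5%.

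RefSeq (GRCm38.p6) held promoter sequences for *Zscan4b*, *Zscan4c*, *Zscan4d* and *Zscan4f* in the table used here. A stretch of 216 bases shared by them is shown because these paralogs had near-identical sequence ahead of their start sites, with capitals at the 12 positions where the 4 genes differ. The stretch ends at the annotated start of *Zscan4b* and *Zscan4f*, 23 bases before that of *Zscan4c* and 34 bases before that of *Zscan4d*.
*Zscan4b* (chr7:10905051-10905266, strand -): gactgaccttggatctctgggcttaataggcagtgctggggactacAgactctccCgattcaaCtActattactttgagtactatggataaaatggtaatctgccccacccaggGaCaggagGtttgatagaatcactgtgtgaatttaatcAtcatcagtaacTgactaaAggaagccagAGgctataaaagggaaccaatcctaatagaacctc
*Zscan4c* (chr7:11005506-11005721, strand +): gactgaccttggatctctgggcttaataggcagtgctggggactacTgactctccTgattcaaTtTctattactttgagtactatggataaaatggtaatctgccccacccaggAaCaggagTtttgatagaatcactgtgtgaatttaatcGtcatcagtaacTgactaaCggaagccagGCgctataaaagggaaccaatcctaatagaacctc
*Zscan4d* (chr7:11166183-11166398, strand -): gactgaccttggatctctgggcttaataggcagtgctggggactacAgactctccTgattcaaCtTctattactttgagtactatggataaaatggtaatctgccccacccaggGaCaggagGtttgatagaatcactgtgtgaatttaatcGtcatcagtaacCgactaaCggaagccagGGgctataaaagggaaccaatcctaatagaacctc
*Zscan4f* (chr7:11397699-11397914, strand +): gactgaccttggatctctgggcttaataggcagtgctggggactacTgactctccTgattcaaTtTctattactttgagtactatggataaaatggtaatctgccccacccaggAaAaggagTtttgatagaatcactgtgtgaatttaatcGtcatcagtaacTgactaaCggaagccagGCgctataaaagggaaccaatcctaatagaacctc

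In this stretch *Zscan4c* and *Zscan4f* differed at 1 position and *Zscan4c* and *Zscan4d* at 6, while *Zscan4b* differed from *Zscan4f* at 11. Motifs were searched in the full promoter sequences, which are longer than this stretch. The letters TATAAA were present on the coding strand in all 4 genes, beginning 31 bases before the start in *Zscan4b* and *Zscan4f*. They were found on the coding strand in 8.3% of 32851 mouse promoters and on either strand in 13.6%. TGATTNAA, the core of known Dux binding sites, was found on the coding strand of *Zscan4c*, *Zscan4d* and *Zscan4f* but not of *Zscan4b*. It was on the coding strand in 1.6% of promoters and on either strand in 2.9%. Neither motif was in the promoter of *Zfp352*. These are matches of letters and no binding was measured.

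The WT cells had more *Zscan4* RNA in spheroids than in ESCs. The summed level of the 9 *Zscan4* genes was 1.25 and 3.63 CPM in the WT libraries at 0 h, 8.71 and 9.31 CPM at 24 h, and 11.6 and 10.5 CPM at 48 h. Both libraries at 24 h were above both at 0 h, and both at 48 h were above both at 24 h. The share of all genes that separated between times in this way was not computed. The mean was 3.69-fold higher at 24 h than at 0 h, and 1.23-fold higher at 48 h than at 24 h. The first of these folds rests on 0 h libraries that lay far apart (1.25 and 3.63 CPM). These sums are given as a description, with no test, because the genes were chosen with earlier results known.

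In CIDEA KO cells the same sum was lower than in WT at every time, and it also rose from 0 h to 24 h. It was 0.591 and 0.385 CPM at 0 h, 1.44 and 1.66 CPM at 24 h, and 1.06 and 1.70 CPM at 48 h. The KO mean was 3.17-fold higher at 24 h than at 0 h, with both libraries at 24 h above both at 0 h. At 48 h it was 1.12-fold lower than at 24 h. Both KO libraries were below both WT libraries at each time. The mean was 5.0-fold lower in KO than in WT at 0 h (0.488 ± 0.146 against 2.44 ± 1.68 CPM, SD, n = 2), 5.83-fold lower at 24 h (1.55 ± 0.157 against 9.01 ± 0.426 CPM) and 8.04-fold lower at 48 h (1.38 ± 0.45 against 11.1 ± 0.768 CPM). Without WT 0 h replicate 2 the fold at 0 h was 2.57. From lowest to highest, the groups were KO at 0 h, KO at 48 h, KO at 24 h, WT at 0 h, WT at 24 h and WT at 48 h. The libraries of KO at 48 h and KO at 24 h overlapped, and those of WT at 0 h overlapped with both. In bulk RNA, fewer cells in the 2-cell-like state and less RNA in each such cell cannot be told apart.

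**Figure D2:**
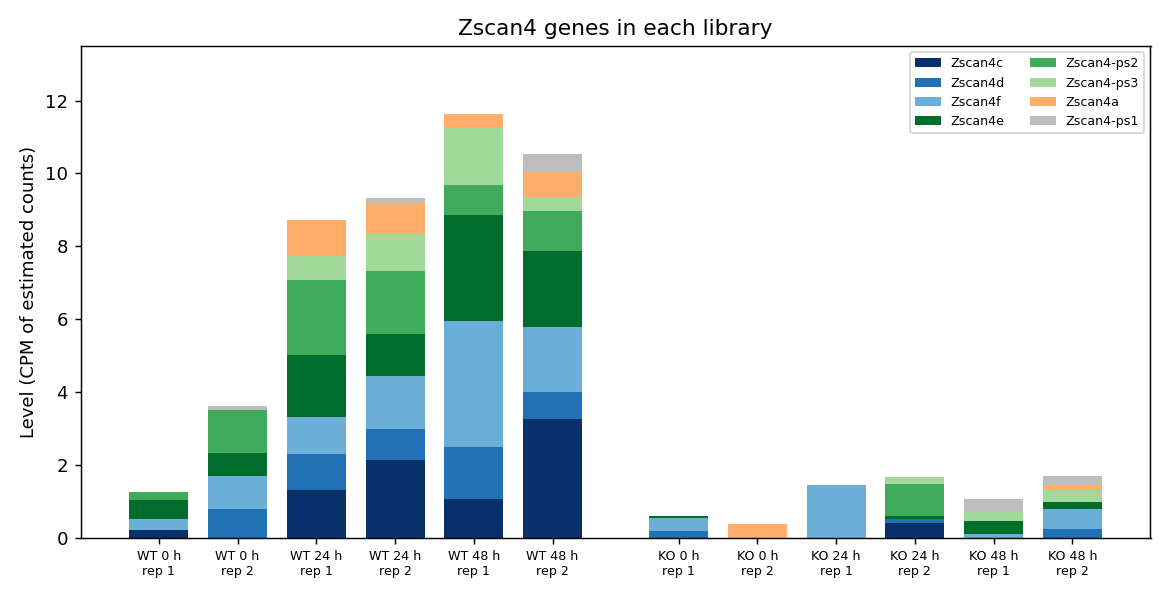
Level of each *Zscan4* gene (CPM of estimated counts, stacked) in the 6 WT and the 6 KO libraries, by time and replicate. The stacks of the WT spheroids reach 8.71 to 11.6 CPM, and no KO library exceeds 1.70 CPM. *Zscan4b* is not drawn because it had 0 counts.

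The sum over *Zscan4c*, *Zscan4d*, *Zscan4f*, *Tcstv3* and *Zfp352* alone followed the same order between genotypes in spheroids. It was 126.6 and 164.2 estimated counts in WT at 24 h and 175.1 and 209.5 at 48 h, against 49.0 and 19.8 in KO at 24 h and 4.3 and 22.5 at 48 h. On the CPM scale the log2 ratio of KO over WT was -2.06 at 24 h and -3.73 at 48 h, with spreads of 0.89 and 1.52 on the log2 scale. The spread was approximated from the SDs of 2 libraries per group and is no test. It is rough where the KO SD exceeded the KO mean, as at 48 h (0.447 ± 0.472 CPM). Without KO 48 h replicate 2 the log2 ratio at 48 h was -5.71. At 0 h the sum was 15.8 and 50.2 counts in WT and 16.0 and 0 in KO, the groups overlapped, and the log2 ratio of -1.99 was within the spread of 2.31. The other 6 *Zscan4* genes gave a KO mean 6.36-fold, 9.03-fold and 5.61-fold lower than WT at 0, 24 and 48 h, with no overlap at any time and spreads of 1.94, 2.04 and 0.18 on the log2 scale. With a library left out the fold at 0 h ranged from 3.47 (without KO replicate 1) to 38.4 (without KO replicate 2), and without KO 24 h replicate 1, which had 0 counts of these genes, it was 4.52-fold at 24 h. The share of the *Zscan4* counts held by *Zscan4f* was 19.2% in WT and 35.7% in KO libraries, and 17.6% in KO without KO 24 h replicate 1.

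*Zscan4c* had 6.2 and 0 estimated counts in the WT libraries at 0 h, 44.0 and 76.0 at 24 h, and 31.1 and 116.5 at 48 h. In KO libraries it had counts only in 24 h replicate 2, with 14.3. The mean level in WT was at least 20.8-fold higher than in KO at 48 h, taking 3 counts per library as the floor for the KO libraries at 0, and at least 10.2-fold higher without WT 48 h replicate 2. At 24 h it was 8.23-fold higher, and at 0 h both groups were at or under the floor. Averaged over the 3 times, *Zscan4c* was called lower in KO (edgeR quasi-likelihood test, adjusted p = 0.018), in a test that it entered through its WT counts. Its fitted log2 fold change of -5.63 ± 1.3 (SE) depends on how groups at 0 are handled and is no measure of size. The adjusted p ranged from 6.5e-05 to 0.087 over the other settings and from 0.00025 to 1.0 over the libraries left out in turn. The call was lost with DESeq2 (0.06), with limma on log2(TPM + 1) (0.07) and log2(TPM + 0.1) (0.053) and with transcript lengths as offsets (0.087). It was also lost without KO 48 h replicate 1 (edgeR adjusted p = 0.051), KO 0 h replicate 2 (0.056), WT 48 h replicate 2 (0.071) or WT 0 h replicate 1 (1.0), the last of which leaves WT at 0 h without any count.

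*Zscan4d* had 0 and 23.8 counts in WT at 0 h, 33.8 and 30.2 at 24 h, and 42.2 and 26.4 at 48 h. Its counts in KO were 5.0 and 0 at 0 h, 0 and 3.5 at 24 h, and 0 and 7.3 at 48 h. The groups overlapped at 0 h and not at 24 h or 48 h. Over all times the log2 fold change was -3.07 ± 1.3 (SE), which did not pass (edgeR adjusted p = 0.20), and it passed without KO 24 h replicate 2 (0.042).

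*Zscan4f* had 9.6 and 26.4 counts in WT at 0 h, 33.9 and 52.0 at 24 h, and 101.8 and 62.6 at 48 h. Its counts in KO were 11 and 0 at 0 h, 49.0 and 0 at 24 h, and 4.3 and 15.2 at 48 h. The 49.0 counts were all the *Zscan4* counts of KO 24 h replicate 1, the library with the fewest genes detected. The genotypes overlapped at 0 h and 24 h, and at 48 h the mean level was 8.13-fold higher in WT. The log2 fold change over all times, -1.83 ± 0.92 (SE), did not pass (edgeR adjusted p = 0.34), and was -4.34 without KO 24 h replicate 1 (0.0057).

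*Tcstv3* was close to the limit of detection. It had 15.0 and 6.0 counts in WT at 24 h, 0 and 4.0 in WT at 48 h and 2.0 in KO 24 h replicate 2, and 0 in the other libraries. Its paralog *Tcstv1* had 5.0 counts in WT 48 h replicate 2 and 0 elsewhere. *Zscan4b*, which differed from *Zscan4e* at 5 of 1722 aligned bases and had 4.8% of its 31-base words to itself, was assigned 0 counts in all 12 libraries. *Zfp352* also had 0 counts in all of them, which allows a level of up to 0.0784 to 0.104 CPM in a library. Scaled by length, *Zscan4f* had the highest level of the members at 48 h in WT, 3.55 ± 0.644 TPM (SD, n = 2), with 1.44 ± 1.03 TPM for *Zscan4c* and 0.728 ± 0.335 TPM for *Zscan4d*.

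**Figure D3:**
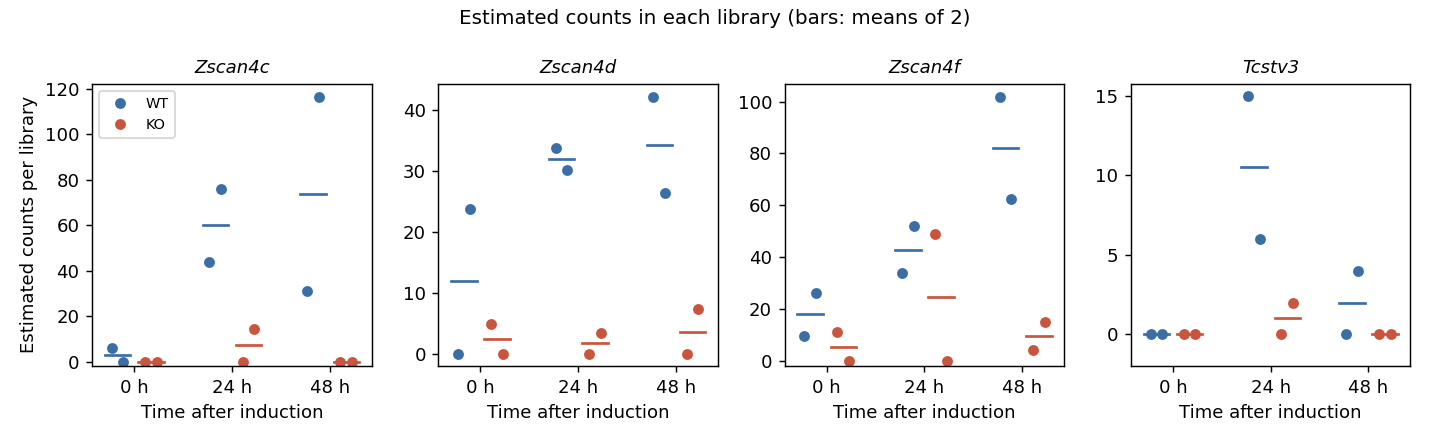
Estimated counts (vertical axis, a separate scale for each gene) of *Zscan4c*, *Zscan4d*, *Zscan4f* and *Tcstv3* in each WT and KO library at 0, 24 and 48 h, with short bars for the mean of 2 libraries. *Zfp352*, at 0 in every library, is not drawn. At 48 h both KO libraries lie below both WT libraries for the 3 *Zscan4* genes.

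*Zscan4c*, *Zscan4d* and *Zscan4f* passed the filter on low counts and entered the test across 17424 genes, and *Tcstv3* and *Zfp352* did not. The filter asked for about 10 counts in at least 2 libraries. *Zscan4c* and *Zscan4d* met it through their WT libraries, as did *Zscan4e*, *Zscan4-ps2* and *Gm20767*, described below. The genes were also chosen with earlier results known, so their calls are a description. Between the genotypes, edgeR called none of *Zscan4c*, *Zscan4d* and *Zscan4f* at any single time (0 at 0 h, 0 at 24 h, 0 at 48 h). Of all tested genes 1.26%, 1.46% and 0.671% were called in either direction, and 0.987%, 1.02% and 0.476% were called lower in KO. DESeq2 also called 0 at each time, and 1 of the 3 had an unadjusted p under 0.05, *Zscan4c* at 48 h. Over all times 1 of the 3 was called lower, against 2.84% of all genes. Both KO libraries lay below both WT libraries for 3 of the 5 members at 24 h and for 3 at 48 h, where the shares among all tested genes were 21.5% and 20.7%, and for 0 of 5 at 0 h, against 20.6%. Of the 9 *Zscan4* genes this held for 2, 6 and 7 at 0, 24 and 48 h.

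No member was called between times within a genotype, where edgeR called 15% of all genes between 0 h and 24 h in WT (7.54% higher, 7.47% lower) and 8.14% between 24 h and 48 h (3.28% higher, 4.86% lower). In KO the shares were 18.6% (9.24% higher, 9.33% lower) and 9.95% (4.57% higher, 5.37% lower). DESeq2 also called 0 members in each of these comparisons. In WT *Zscan4c* had an unadjusted p of 0.037 for the rise from 0 h to 24 h (edgeR adjusted p = 0.15), and this passed without KO 24 h replicate 1 (0.023) or KO 24 h replicate 2 (0.028). In KO its unadjusted p was 0.039 from 0 h to 24 h and 0.033 from 24 h to 48 h (edgeR adjusted p = 0.14 and 0.17). The change over time did not differ between the genotypes for any member beyond the threshold (0 of 3 called at either step, 0 with an unadjusted p under 0.05, and 0 with DESeq2), and 0.0115% and 0.023% of all genes were called in these tests.

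Among the *Zscan4* genes that are not members, *Zscan4e* gave the clearest difference. It had 16.0 and 19.2 counts in WT at 0 h, 57.5 and 41 at 24 h, and 85.7 and 75.3 at 48 h, against 1.0 and 0, 0 and 2.2, and 13 and 6.0 in KO. Every KO library was below every WT library, and over all times *Zscan4e* was called lower in KO (edgeR adjusted p = 0.0028). This call was made under each of 20 alternative settings. The fitted log2 fold change of *Zscan4e*, -4.45 ± 0.84 (SE), is no measure of size, since its KO mean was under the floor at 0 h and 24 h. At 48 h its mean level was 9.07-fold higher in WT. *Zscan4-ps2* had counts in 1 KO library, with 29.9 at 24 h, and 6.2 to 68.8 counts in the 6 WT libraries. It was also called lower over all times (edgeR adjusted p = 0.012), in 17 of the 20 settings, and its mean level in WT was at least 6.65-fold higher at 0 h and at least 9.3-fold higher at 48 h, with the same floor, and 4.28-fold higher at 24 h. The limit at 0 h was 1.94-fold without WT 0 h replicate 2. *Zscan4-ps1* had 25.9 counts over the WT libraries and 21.09 over the KO libraries and did not pass (adjusted p = 0.50). The comparison over all times had no finite estimate for *Zscan4a* and *Zscan4-ps3*, which had groups at 0 in it. With genotype and time as additive terms, a design added after the data were seen, their log2 fold changes were -2.37 ± 2.1 and -2.25 ± 1.2 (SE, edgeR adjusted p = 0.67 and 0.41).

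A list of 49 other genes of the 2-cell-like state was examined next. Of these 37 had a count in some library and 24 were tested, *Zscan4a* and *Zscan4e* among them. Over all times 3 were called lower in KO (2.84% of all tested genes were) and 1 higher (2.19%). For 3 of the 24 (*Zscan4a*, *Gm2016* and *Gm8300*) this comparison had no finite estimate because groups were at 0. Of the other 21 genes, 16 had a log2 fold change below 0, with a median of -2.57 against 0 over all tested genes, and this median includes fits with groups at 0. With each genotype's mean CPM set to at least 3 counts per library, which applied to 8 KO means, the median log2 ratio of the 24 was -1.54 against 0 over all tested genes. Several of the 24, such as *Usp17lb* and *Gm12794* with 0 counts in KO, entered the test through their WT counts. Medians below 0 therefore follow in part from the filter and are a description. In addition to *Zscan4e*, *Gm20767* and *Gm5662* were lower. *Gm20767* had 8.7 to 22.8 counts in the WT libraries and 5.0 in a single KO library (edgeR adjusted p = 0.045). *Gm5662* had 9.5 to 88.5 counts in WT, and in KO 0 and 0 at 0 h, 75 and 10.5 at 24 h, and 33.0 and 6.0 at 48 h (edgeR adjusted p = 0.047). These last calls were each made in 6 of the 20 alternative settings. *Usp17lb*, of a family of deubiquitinases, and *Gm12794* had 69.7 and 45.8 counts over the WT libraries and 0 over the KO libraries but did not pass (edgeR adjusted p = 0.059 and 0.099).

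The most abundant genes of the list, *Nelfa*, *Zfp365*, *Ddit4l* and *Trim43b*, had small fold changes. *Zfp365* was higher in KO over all times, with a log2 fold change of 0.46 ± 0.097 (SE, edgeR adjusted p = 0.0067). Its mean level was 23.7 ± 1.09 CPM in WT and 39.8 ± 1.59 CPM in KO at 24 h (SD, n = 2), the only time at which it was called (edgeR adjusted p = 0.024). *Nelfa*, a subunit of the NELF complex that pauses RNA polymerase II, had a log2 fold change of -0.06 ± 0.054 (SE, edgeR adjusted p = 0.64), and *Ddit4l* one of 0.18 ± 0.15 (0.63). *Trim43b*, of a tripartite motif family, was at 361.0 and 360.6 counts in WT and 285.8 and 361.2 in KO at 24 h, with a log2 fold change over all times of -0.26 ± 0.21 (edgeR adjusted p = 0.60). Of the 34 listed genes with a count outside the *Zscan4* and *Tcstv* families, 28 had a higher mean CPM in WT, 6 had a higher one in KO, 7 had counts in WT only and 1 in KO only. A count here means a sum over a genotype that rounds to at least 1, and 11 of the 34 had under 30 counts in all. The matching shares over all genes were not computed, so these numbers of genes are a description without a background.

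**Figure D4:**
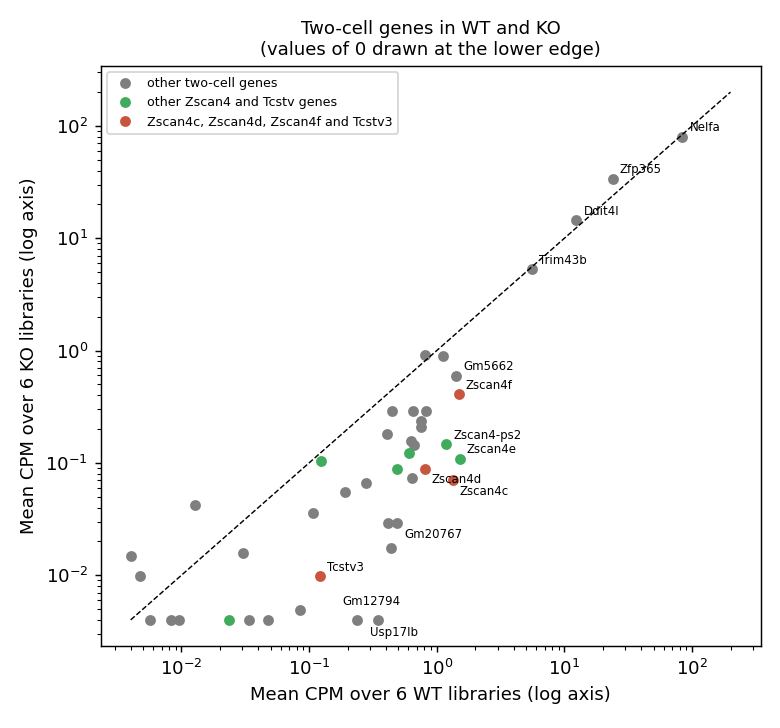
Mean CPM over the 6 KO libraries (vertical, log axis) against the mean over the 6 WT libraries (horizontal, log axis) for *Zscan4*, *Tcstv* and other 2-cell genes with a mean of at least 0.005 CPM in a genotype, with values of 0 placed at the lower edge. Points below the dashed line of equality are lower in KO. *Nelfa*, *Zfp365*, *Ddit4l* and *Trim43b* lie near the line, and *Zscan4c*, *Zscan4d* and *Zscan4f* below it.

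From 0 h to 24 h *Trim43b* and *Zfp365* rose in both genotypes, and 4 other genes of the list passed the test in a single genotype. *Trim43b* had 76.8 and 43.1 counts in WT at 0 h and 31.2 and 29.5 in KO at 0 h, and rose by 24 h with a log2 fold change of 2.39 ± 0.37 in WT and 3.18 ± 0.39 in KO (SE, edgeR adjusted p = 0.00012 and 6e-06). It fell by 1.28 ± 0.35 on the log2 scale from 24 h to 48 h in WT (edgeR adjusted p = 0.028). *Zfp365* rose by 0.94 ± 0.17 in WT and by 1.49 ± 0.17 in KO from 0 h to 24 h (edgeR adjusted p = 0.00066 and 2.9e-06), and by a further 0.57 ± 0.17 in WT by 48 h (0.037). *Trim43c* (adjusted p = 0.047) and *Gm2016* (0.033) rose in WT, and *Ddit4l* (0.023) and *Gm5662* (0.0045) rose in KO, by edgeR. In all, 4 of the 24 rose between 0 h and 24 h in WT, where 7.54% of all genes did, and 4 in KO, where 9.24% did. No listed gene was called for a difference of these changes between genotypes (0 of 24 at either step, with 4 and 1 at an unadjusted p under 0.05). *Duxf3*, a gene of the Dux family, had 1.5 counts in WT 0 h replicate 1 and 0 elsewhere.

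All 32 listed genes known to activate or repress the 2-cell programme were tested, and all but *Trim66* (0.176 to 0.927 CPM) had a mean of at least 15.7 CPM in each group. Over all times 3 were lower in KO (2.84% of all genes were) and 2 higher (2.19%), with a median log2 fold change of -0.04 against 0 over all genes. *Hdac2*, a histone deacetylase, was lower at each time. Its level was 236 ± 20.8 CPM in WT and 163 ± 1.3 CPM in KO at 0 h (SD, n = 2), and the log2 fold change was -0.53 ± 0.089, -0.54 ± 0.089 and -0.60 ± 0.09 at 0, 24 and 48 h (SE, edgeR adjusted p = 0.0024, 0.0028 and 0.0014). *Tet1*, an enzyme that oxidises methylated cytosine, was lower over all times by a log2 fold change of -0.63 ± 0.095 (SE, edgeR adjusted p = 0.0067).

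*Lin28a*, an RNA-binding protein that blocks let-7 maturation, was lower in KO at 0 h, with a log2 fold change of -0.53 ± 0.066 (SE, edgeR adjusted p = 0.00015), and gave -0.02 ± 0.065 and 0.10 ± 0.065 at 24 h and 48 h (0.95 and 0.84). It was the third gene lower over all times (-0.15 ± 0.038, edgeR adjusted p = 0.024). Its change from 0 h to 24 h did not differ between genotypes beyond the threshold (edgeR adjusted p = 0.084). *Zfp281*, a zinc finger factor, and *Rybp*, a subunit of Polycomb repressive complexes, were higher over all times by 0.16 ± 0.044 and 0.13 ± 0.037 on the log2 scale (SE, edgeR adjusted p = 0.038 and 0.043). *Dppa2* and *Dppa4*, which form a complex that activates *Dux*, had log2 fold changes of -0.11 ± 0.051 and -0.15 ± 0.046 over all times (edgeR adjusted p = 0.28 and 0.075). The corepressor gene *Trim28* gave -0.05 ± 0.041 (0.59) and *Smchd1*, which encodes a chromatin repressor, 0.10 ± 0.048 (0.29). The part of these genes in the *Zscan4* levels was not tested.

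**Figure D5:**
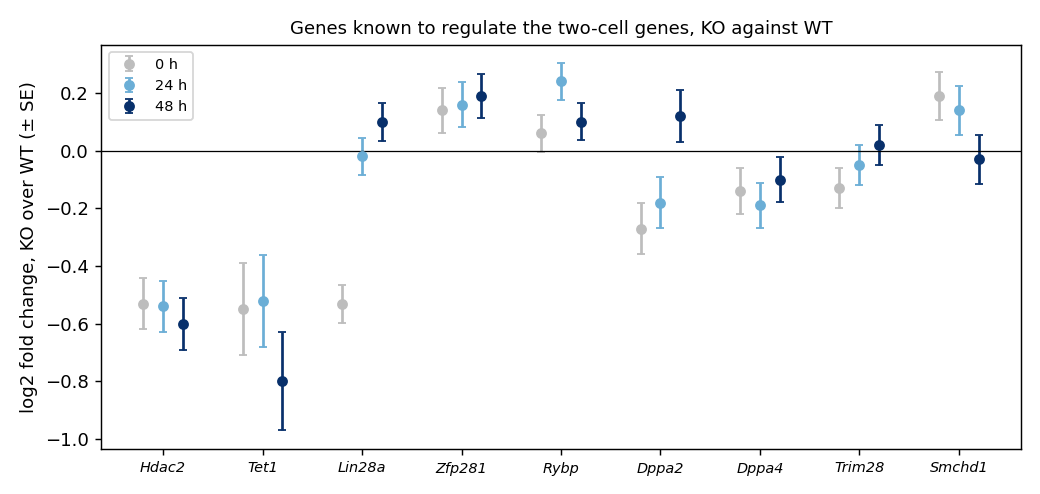
Log2 fold change of KO over WT with its standard error (vertical axis) for 9 regulators of the 2-cell programme at 0, 24 and 48 h. *Hdac2* lies between -0.60 and -0.53 at all times, and *Lin28a* lies at -0.53 at 0 h and at -0.02 and 0.10 later.

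Among the genes outside the list whose levels followed the summed members most closely over the 12 libraries (Pearson correlation of log2 CPM) were *Scarf1* (r = 0.96), *Nlrc4* (0.94), *Atad3a* (0.90), *Lmcd1* (0.89), *Mfsd4b4* (0.88), *Klhl13* (0.87) and *Sharpin* (0.87). The 12 points share 6 groups and a difference in genotype, and 38 of 17394 genes had r over 0.8, so these values are a description. *Klhl13*, an adaptor of a ubiquitin ligase, had 69.7 to 90.2 CPM in WT and 38.7 to 57.8 CPM in KO libraries. *Nlrc4*, which encodes an inflammasome protein, had 6.01 to 10.8 CPM in WT and 2.84 to 6.97 CPM in KO libraries. *Scarf1*, a scavenger receptor gene, had 2.48 to 4.04 CPM in WT and 1.26 to 2.37 CPM in KO libraries. The WT and KO ranges overlapped for *Nlrc4* and not for *Klhl13* or *Scarf1*, which follows in part from how these genes were chosen.

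For single genes, both KO libraries lay below both WT libraries in 20.6%, 21.5% and 20.7% of all tested genes at 0, 24 and 48 h. Against this background, several marker sums differed between the genotypes without overlap. That of 6 fibroblast markers was lower in KO at each time, with 15.9 to 22.1 CPM in WT and 8.4 to 11.7 CPM in KO at 0 h, 16.5 to 19.2 and 12.2 to 12.3 CPM at 24 h, and 22.7 to 23.3 and 14.2 to 16.8 CPM at 48 h. Most of this sum was *Thy1*, with means of 15.1, 14.4 and 17.4 CPM in WT and 8.04, 9.03 and 10 CPM in KO at 0, 24 and 48 h. *Col1a1* also had a lower mean in KO at each time. *Col1a2* had a higher mean in KO at 24 h (0.893 against 0.307 CPM) and 48 h (1.22 against 1 CPM), as did *Twist2* at 48 h (0.355 against 0.136 CPM). *Postn*, a fibroblast marker, was at 0 in every library.

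The sum of 6 germ-line markers was lower in KO at 0 h (49.6 to 55.2 against 35.1 to 41 CPM) and 24 h (52 to 64.9 against 32.5 to 45.6 CPM), and overlapped at 48 h (74.3 to 84.2 and 77.4 to 81.5 CPM). At 0 h *Ddx4* had a higher mean in KO (17.8 against 15 CPM), and the other germ-line markers had lower ones. For 4 markers of primed pluripotency the sum was 161 to 169 CPM in WT and 119 to 128 CPM in KO at 0 h, 751 to 792 and 606 to 616 CPM at 24 h, and about 1570 in both WT libraries and 1500 to 1580 CPM in KO at 48 h. At 0 h the primed marker *Pou3f1* had a higher mean in KO (4.53 against 2.79 CPM). *Otx2* (27.7 against 53.6 CPM), *Dnmt3b* (90.5 against 108 CPM) and *Fgf5* (0.476 against 0.566 CPM) had lower means in KO at 0 h. The pluripotent sum given above was higher in KO at 0 h and 24 h.

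For 6 trophoblast markers the sum was lower in KO at 0 h (49.5 to 52.4 against 32.8 to 34.6 CPM), higher in KO at 24 h (31.7 to 31.9 against 35.2 to 40.6 CPM) and overlapped at 48 h (31.8 to 37.6 and 32.0 to 36 CPM). For 7 primitive endoderm markers it overlapped at 0 h (16.1 to 19.5 and 15.7 to 16.5 CPM) and was lower in KO at 24 h (16.6 to 18.3 against 15.2 to 15.9 CPM) and 48 h (20.1 to 20.4 against 14.7 to 16.7 CPM). At 0 h *Tfap2c* gave the largest trophoblast difference (24.6 CPM in KO against 41 in WT). *Gata3* (0.784 against 0.185 CPM) and *Krt7* (0.636 against 0.42 CPM) were higher in KO, and the other trophoblast markers lower. At 48 h *Dab2* gave the largest primitive endoderm difference (8.93 against 13.2 CPM). *Gata6* and *Foxa2* were also lower in KO, and the other primitive endoderm markers had slightly higher means. The part of these marker differences in the *Zscan4* levels was not tested.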

How the data were processed

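RNA was measured in 12 libraries, 2 for each genotype and time. The authors made mRNA libraries with a stranded kit, used Trimmomatic 0.33 for trimming of paired reads and kallisto 0.43.1 for quantification, per the labels. The deposited tables give, for 115270 transcripts, estimated counts, which need not be whole, and TPM, which the authors' tool scaled for length and depth. The transcript set is not given in the sources used here, and the labels name GRCm38.

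Transcripts were matched by identifier to GENCODE M21 (113580, 98.5%) and summed by gene, and count sums were rounded to whole numbers for the tests. The unmatched transcripts held 0.659% to 0.709% of counts. A total of 3 counts, the floor used, corresponds to 0.0784 to 0.104 CPM per library and covers counting error only. CPM were scaled by TMM. Genes passing filterByExpr (17424) were fitted in edgeR 4.0.16 (R 4.3.3) by robust quasi-likelihood with 1 mean per group over all 12 libraries. A Benjamini-Hochberg adjustment covered the 17424 genes, and an adjusted p under 0.05 was a call. Replicates differed by 11.2 to 32.7 chi-square per degree of freedom, so none was a copy of another. The study describes them as independent samples, each from 1 KO clone or its parent.

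The named genes were the members, the other *Zscan4* and *Tcstv* genes, listed 2-cell genes called in any of 10 comparisons, regulators called between genotypes with 6 fixed ones, and the 8 genes most correlated with the summed members, of which 1 is not reported here. *Usp17lb*, *Gm12794* and *Nelfa* were added after their values were seen. The members and lists were chosen with earlier results of these data known. Alternatives were DESeq2 1.42.0, its size factors in edgeR, no filter, limma 3.58.1 on log2 TPM, transcript lengths as offsets, a replicate block, only the groups compared, and each library left out. The additive design, the folds and shares of sums and the lower limits with a library left out, and the list median with a floor were chosen after seeing the data. The scripts were tested on simulated data. Repeat elements were not analysed here.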

Additional observations from a re-analysis of the deposited data

Results flagged for a closer look

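*Usp17la*, a deubiquitinase gene of the 2-cell list, moved in opposite directions in the WT and KO libraries at both steps, and was brought up for that reason. Its level was 0.402 and 0.685 CPM in WT at 0 h, 0.893 and 0.893 CPM at 24 h, and 0.386 and 0.666 CPM at 48 h. In KO it was 0.639 and 0.289 CPM at 0 h, 0 and 0.111 CPM at 24 h (mean 0.0554), and 0.43 and 0.277 CPM at 48 h (mean 0.354). Both WT libraries at 24 h were above those at 0 h and 48 h, and both KO libraries at 24 h were below theirs. The KO mean at 24 h was under the floor of 3 counts per library (0.0882 CPM). The share of all genes that moved in this way was not computed. The test of the difference itself did not pass at either step, with log2 differences of -3.61 ± 2.3 and 3.27 ± 2.3 (SE, edgeR adjusted p = 0.90 and 0.98). KO 24 h replicate 1, with 0 counts of *Usp17la*, is also the library with the fewest genes detected, and its part in this pattern was not tested.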

How the results depend on the processing

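No alternative changed the direction of the summed members between genotypes. The log2 ratio of KO over WT was -2.32 to -1.97 at 0 h, -2.56 to -2.05 at 24 h and -4.08 to -3.02 at 48 h over other scalings, summed TPM and added paralogs, and -2.6 to -0.91, -2.85 to -1.55 and -5.71 to -2.92 with a library left out. Leaving out KO 0 h replicate 1 gave no value, since the other KO library was at 0. Over all times the 1 member called became 0 with DESeq2, 0 with limma at either pseudocount (1 or 0.1), 0 with transcript lengths as offsets, and 0 to 2 with a library left out. At 48 h it was 1 without the filter on low counts and 1 with only the groups compared, and with a library left out 0 to 1 members were called at 24 h, 48 h, between 0 h and 24 h in WT and KO, and between 24 h and 48 h in KO. The calls of *Zscan4c* between times in KO appeared without KO 24 h replicate 1, which leaves that group with 1 library. A group left with 1 library was assumed to vary like the others. Over all times 877 genes were called, against 189 with limma at either pseudocount, 294 with transcript lengths as offsets, 1207 with DESeq2, 1268 without the filter on low counts and 510 to 2506 with a library left out, the highest without KO 24 h replicate 2.

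Direction reversed for values that were not called. With limma the difference between genotypes in the change from 0 h to 24 h became -0.83 and -2.03 for *Zscan4c* and -0.50 and -0.83 for *Zscan4f* (pseudocounts 1 and 0.1), and that from 24 h to 48 h became -0.01 for *Zscan4d* (pseudocount 1). With a library left out, the log2 fold change in WT from 24 h to 48 h ranged from -0.71 to 0.92 for *Zscan4c* and from -0.34 to 0.61 for *Zscan4d*. KO against WT ranged from -6.72 to 4.55 for *Zscan4d* at 0 h and from -8.32 to 0.22 for *Zscan4f* at 24 h. In KO from 0 h to 24 h the range was -4.54 to 4.03 for *Zscan4d* and -5.65 to 7.56 for *Zscan4f*, and from 24 h to 48 h -4.03 to 4.95 and -2.72 to 6.31. The difference between genotypes in the first step ranged from -4.08 to 2.66 for *Zscan4c*, -8.45 to 2.83 for *Zscan4d* and -6.69 to 6.52 for *Zscan4f*, and in the second from -4.24 to 4.74 for *Zscan4d* and -3.8 to 5.24 for *Zscan4f*. The cause was not tested. Counts of 0 in a library limit all of these values.

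Replicate numbers showed no pairing between genotypes, since same-numbered WT and KO libraries did not deviate together (correlation of deviations 0.003, 0.051 and -0.009 at 0, 24 and 48 h). Whether same-numbered libraries of a genotype were paired across times was not tested. With a replicate block the count of members called stayed at 1 over all times and at 0 in the other 9 comparisons, and 859 genes were called over all times.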
